A study of Mus musculus with 14 samples.

Results

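The cell cycle transcripts of regulatory T cells were described with 32 genes, 21 that act in mitosis and 11 that act in DNA replication, chosen by name out of the 14449 genes of the deposited table. All 32 were found in the table, and all 32 were among the 12329 genes expressed highly enough to be tested. The cells were CD4+Foxp3eGFP+ T cells, which carry a green fluorescent reporter of Foxp3, and they were sorted at post natal day 35 from BALB/c lymph nodes. Wild-type mice were compared with Il1rn-/- mice, which lack the gene of a secreted antagonist that occupies the IL-1 receptor without signalling. The sample titles carry a letter that divides the libraries into set a, with 3 wild-type and 3 Il1rn-/- libraries, and set b, with 4 of each. The labels do not explain the letter, and they do not say whether separate animals gave the libraries, so the p-values measure only the spread between libraries. RNA came from 50000 sorted cells per sample and was made into full-length Smart-Seq2 libraries. The targeted gene could not check the genotype labels, since no row of the analysed table is named Il1rn.

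A cell that divides first copies its DNA in S phase and then separates the copies in mitosis. Transcripts for the replication machinery accumulate around the start of S phase under E2F factors, and transcripts for the mitotic machinery accumulate later, in G2 and mitosis, through promoters that bind the DREAM and MuvB complexes at an element called CHR and NF-Y at CCAAT boxes. Foxp3+ regulatory T cells divide more often in the resting animal than other CD4+ T cells, so their bulk RNA normally holds both groups of transcripts. In bulk RNA, fewer dividing cells and less of a transcript in each dividing cell cannot be told apart.

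The promoters of both groups were compared, because the mitotic and the replication genes are known to respond to different elements. RefSeq promoter windows on GRCm38.p6, reaching from 250 bases before to 50 bases after the annotated start, were found for 27 of the 32 genes, and the ones not in that table were Aurkb, Ccna2, Kif20a, Tpx2 and Mcm4. The letters searched on both strands were TTTGAA and TTCGAA for CHR, CCAAT for the NF-Y box, and for E2F first TTCCCGC, next the variant TTGGCGC, then the variant TTCGCGC and last the variant TTGCCGC. Matches to different E2F words can overlap on opposite strands, and each was counted. In the windows below, matches to any of the 3 elements are in capitals. The genes shown were chosen by name as examples and not by a ranking, and Mcm6 had the most E2F matches. They lie at chr7:135716330-135716629, minus strand for Mki67, at chr11:99024140-99024439, minus strand for Top2a, at chr13:51644982-51645281, plus strand for Cks2, at chr1:128359656-128359955, minus strand for Mcm6 and at chr2:132253131-132253430, minus strand for Pcna.
Mki67: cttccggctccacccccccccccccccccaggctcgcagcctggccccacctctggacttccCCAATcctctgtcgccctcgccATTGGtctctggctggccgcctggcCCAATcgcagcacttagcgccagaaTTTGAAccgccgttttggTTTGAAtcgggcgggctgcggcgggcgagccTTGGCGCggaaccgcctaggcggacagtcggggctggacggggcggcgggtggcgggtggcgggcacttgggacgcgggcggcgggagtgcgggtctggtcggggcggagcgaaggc
Top2a: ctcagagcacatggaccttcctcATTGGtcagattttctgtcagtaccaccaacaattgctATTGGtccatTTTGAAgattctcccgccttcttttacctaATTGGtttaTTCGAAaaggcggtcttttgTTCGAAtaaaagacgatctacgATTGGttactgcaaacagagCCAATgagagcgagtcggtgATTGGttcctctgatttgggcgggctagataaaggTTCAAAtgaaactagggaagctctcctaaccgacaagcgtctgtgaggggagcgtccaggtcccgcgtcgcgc
Cks2: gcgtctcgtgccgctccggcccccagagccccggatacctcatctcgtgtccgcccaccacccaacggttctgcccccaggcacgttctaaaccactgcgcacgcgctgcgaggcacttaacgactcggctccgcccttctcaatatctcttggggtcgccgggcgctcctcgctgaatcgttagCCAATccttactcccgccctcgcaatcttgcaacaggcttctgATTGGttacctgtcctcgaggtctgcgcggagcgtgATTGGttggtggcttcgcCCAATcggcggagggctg
Mcm6: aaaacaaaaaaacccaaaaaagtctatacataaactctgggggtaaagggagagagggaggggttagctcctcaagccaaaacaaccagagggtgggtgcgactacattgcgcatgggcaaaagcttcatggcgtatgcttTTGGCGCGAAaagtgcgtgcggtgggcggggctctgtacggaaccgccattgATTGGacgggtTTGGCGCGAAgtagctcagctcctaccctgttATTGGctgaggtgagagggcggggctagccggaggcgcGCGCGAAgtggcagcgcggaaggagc
Pcna: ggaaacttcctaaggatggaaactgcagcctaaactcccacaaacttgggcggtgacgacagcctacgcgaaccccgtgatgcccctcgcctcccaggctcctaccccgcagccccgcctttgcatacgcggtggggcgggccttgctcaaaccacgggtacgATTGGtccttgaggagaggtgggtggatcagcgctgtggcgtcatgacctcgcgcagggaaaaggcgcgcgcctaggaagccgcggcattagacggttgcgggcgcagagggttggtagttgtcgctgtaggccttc

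CHR letters were found in 12 of 17 mitotic windows (70.6%) and in 2 of 11 replication windows (18.2%), against 19.2% of all 32851 windows in the table and 14.3% of the 12054 windows of tested genes. E2F letters showed the opposite order, in 3 of 17 mitotic windows (17.6%) and in 7 of 11 replication windows (63.6%), against 9.57% of all windows and 16.7% of those of tested genes, so the mitotic share was close to that of tested genes. CCAAT was in 15 of 17 mitotic windows (88.2%) and in 9 of 11 replication windows (81.8%), against 37.4% of all and 38.1% of those of tested genes. Mcm7 has 2 annotated starts and so counts as 2 of the 11 replication windows. Top2a carried 4 CHR and 6 CCAAT matches and Mki67 carried 2 and 3, while Cks2 carried 4 CCAAT matches and no CHR letters. Mcm6 carried 5 E2F matches, and Pcna carried 1 CCAAT box and none of the E2F words. Of genes whose windows are not shown, Cenpe carried 1 CCAAT match and no CHR letters. Ccnb1 carried 2 CCAAT matches, 1 E2F match and no CHR letters. The mitotic genes Birc5 and Nusap1 and the replication genes Tk1 and Tyms carried none of the 3 elements. A match to these letters is a description of the sequence and was not tested as a binding site.

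**Figure D1:**
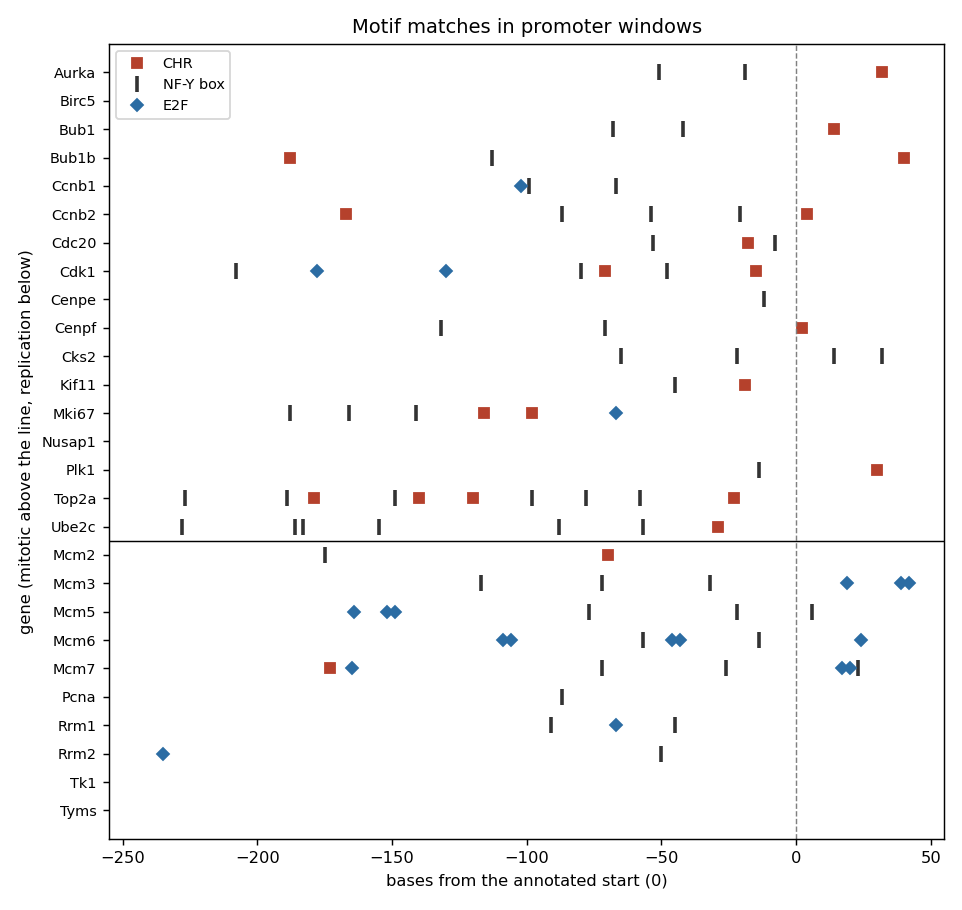
Positions of CHR (red squares), NF-Y box (black bars) and E2F (blue diamonds) matches in 1 promoter window for each of 27 genes, with bases from the annotated start on the horizontal axis and the upstream window of Mcm7 shown. Squares are seen mainly in the mitotic rows above the line and diamonds mainly in the replication rows below it.

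Across the 14 libraries the table held 952021 to 3756559 reads. Rn45s, the gene of the ribosomal RNA precursor, held 20.3% to 40.0% of them in 8 libraries (the 3 wild-type and 3 Il1rn-/- libraries of set a, and Il1rn-/- 3-b and 4-b) and 59.6% to 65.8% in the other 6, called Rn45s-rich here (the 4 wild-type libraries of set b, and Il1rn-/- 1-b and 2-b). Reads outside Rn45s came to 1654868 to 2805693 in the first and 384360 to 905988 in the second. Y-linked transcripts were held by 4 libraries, wild-type 1-a, wild-type 2-a, Il1rn-/- 3-b and Il1rn-/- 4-b. The 8 markers of the sorted cells (Foxp3, Il2ra, Ctla4, Ikzf2, Cd4, Cd3e, Cd3d and Cd3g) had reads in every library. They summed to 1951 to 3228 CPM (reads on the deposited scale). The sums were 16.8 to 66.6 CPM for 6 B cell markers and 13.5 to 73.6 CPM for 4 plasma cell markers. The deposited scale does not follow the reads in the table alone. In Il1rn-/- 3-b, with 3618474 reads, 1 read stood for 0.314 CPM. In wild-type 3-a, with 3522049 reads, 1 read stood for 0.176 CPM. Levels are thus not plain shares of the reads in the table, and the reason was not tested. All values below are on the deposited log2 CPM scale, differences are log2 differences with the standard error from limma, and a gene was called where limma's Benjamini-Hochberg adjusted p over the 12329 tested genes was under 0.05.

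Reads of all 32 genes were found in every library. Per kilobase of the longest transcript, which is needed to compare genes, 8 of the 11 replication genes stood above every mitotic gene. The median level per kilobase was 4.77 log2 CPM for the 11 replication genes and 2.27 for the 21 mitotic genes. The groups overlapped, since Rrm1, at 3.86, Tk1, at 2.82, and Tyms, at 1.85, lay among the mitotic genes. Pcna, the sliding clamp of DNA polymerases, had the highest level per kilobase at 5.67, followed by Mcm5, a subunit of the replicative helicase, at 5.10. Among mitotic genes Top2a, the topoisomerase that untangles sister chromatids, was highest at 4.01 and Cenpf, a large outer kinetochore protein, was lowest at -0.54. Behind these levels stood 1 to 819 reads per gene and library for the mitotic genes and 8 to 694 for the replication genes, so the precision was lowest for Bub1 and Aurka, each with 1 read in its lowest library.

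The mean over the 21 mitotic genes in set a, with libraries in numerical order, was 5.26, 4.62 and 3.72 for wild type against 3.87, 4.50 and 4.38 for Il1rn-/-. In set b it was 3.56, 3.61, 4.00 and 3.98 for wild type against 3.49, 4.33, 4.01 and 3.84 for Il1rn-/-, in the same order, which is kept below. Wild-type 1-a stood above every other library, and the Il1rn-/- libraries lay inside the wild-type range in set a, and on both sides of it in set b. The mean over the 11 replication genes was 6.69, 6.15 and 5.68 in wild type and 5.98, 6.09 and 5.98 in Il1rn-/- in set a. In set b it was 5.93, 5.82, 5.96 and 6.01 in wild type and 5.86, 6.24, 6.10 and 6.11 in Il1rn-/-. The same library, wild-type 1-a, was highest, and wild-type 3-a, of the same genotype and set, was the lowest of the 14.

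As group means these came to 4.53 ± 0.77 in wild type and 4.25 ± 0.34 in Il1rn-/- for the mitotic genes of set a (SD, n = 3 each) and 3.79 ± 0.23 and 3.92 ± 0.35 for those of set b (SD, n = 4 each). For the replication genes they were 6.17 ± 0.51 and 6.01 ± 0.06 in set a and 5.93 ± 0.08 and 6.08 ± 0.16 in set b. The genotypes overlapped in both sets and both groups of genes. Without wild-type 1-a the Il1rn-/- minus wild-type difference of set a went from -0.29 to 0.08 for the mitotic mean and from -0.16 to 0.10 for the replication mean. Without wild-type 3-a these differences were -0.69 and -0.41.

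**Figure D2:**
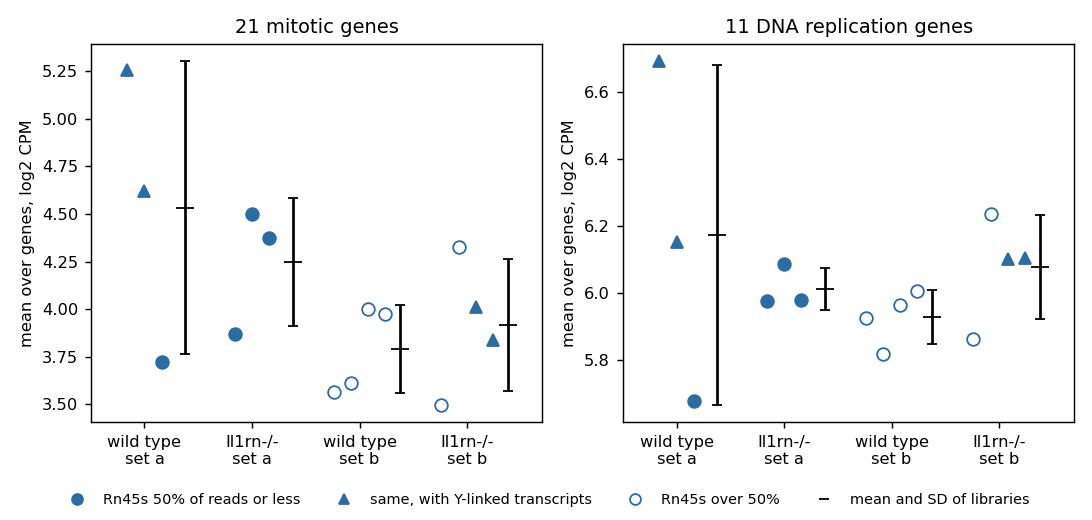
Mean log2 CPM over the 21 mitotic genes (left) and the 11 DNA replication genes (right) in each library, with the mean and SD of each group of 3 or 4 libraries beside the points. Filled circles and triangles are libraries with Rn45s at 50% of reads or less, triangles those that also hold Y-linked transcripts, and open circles the Rn45s-rich libraries. Wild-type 1-a is the highest point in both panels, at 5.26 and 6.69.

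The mitotic mean minus the replication mean was -1.64 ± 0.28 in wild type and -1.77 ± 0.30 in Il1rn-/- of set a (SD, n = 3 each), and -2.14 ± 0.18 and -2.16 ± 0.20 in set b (SD, n = 4 each). The gap was thus wider in set b than in set a in both genotypes, while the genotypes within a set differed by less than 1 SD. Over single libraries this difference ran from -2.37 in Il1rn-/- 1-b to -1.44 in wild-type 1-a.

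Wild-type 1-a was the highest of the 14 libraries for 25 of the 32 genes, 17 of 21 mitotic and 8 of 11 replication, against 6.45% of all tested genes. Wild-type 3-a was the lowest for 7, against 6.64% of all tested genes, and Il1rn-/- 1-b for 6, against 6.77%. Wild-type 1-a also had the highest summed level of the plasma cell markers, 73.6 CPM against 13.5 to 45.5 in the others, and of the B cell markers, 66.6 CPM against 16.8 to 61.4. Its 5 germinal centre B cell markers summed to 22.2 CPM, inside the range of 12.5 to 29.6. Its 4 CD8 T cell and NK cell markers summed to 10.4 CPM, the lowest value in a range of 10.4 to 46.5. Its sums for myeloid, dendritic, immature thymocyte and erythroid markers lay inside the ranges of the 14 libraries. Reads in all 14 libraries were found for only 1 of the 4 plasma cell genes (Jchain, Sdc1, Mzb1 and Prdm1). This held for 4 of the 6 B cell and 2 of the 5 germinal centre genes. The part of any of these markers in the high cell cycle level of wild-type 1-a was not tested.

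For the genotypes, none of the 32 genes was called over all libraries, as was true of all 12329 genes tested (0% called by limma, 5.51% at an unadjusted p under 0.05). Of the 21 mitotic genes 9 had a positive and 12 a negative Il1rn-/- minus wild-type difference, with a median of -0.03, and of the 11 replication genes 5 were positive and 6 negative, with a median of -0.04. Over all tested genes 55.3% were positive, with a median of 0.04. The differences ran from -1.12 to 0.47 for the mitotic and from -0.27 to 0.29 for the replication genes, and the smallest adjusted p by limma was 0.787 in both. The median standard error was 0.23 over the 32 genes. The mitotic median moved with the libraries used, to -0.42 within the 8 libraries that are not Rn45s-rich, 0.16 within the 6 that are, and 0.23 within the libraries that lack Y-linked transcripts with Rn45s-rich ones marked by a covariate. The replication median was -0.065, 0.14 and 0.22 in the same order.

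Among the mitotic regulators, Cdk1 is the kinase that drives entry into mitosis. In set a Cdk1 was at 5.42, 4.25 and 4.04 in wild type and 3.88, 4.65 and 4.49 in Il1rn-/-. In set b it was at 3.35, 3.81, 3.81 and 4.23 in wild type and 2.77, 4.51, 4.46 and 3.93 in Il1rn-/-. The genotypes overlapped in both sets, and the difference over all libraries was -0.03 ± 0.28 (adjusted p = 0.986 by limma). Its mitotic cyclin Ccnb1 was at 4.55, 4.15 and 1.13 in wild type and 3.28, 3.57 and 2.96 in Il1rn-/- in set a. It was at 3.83, 3.88, 4.03 and 5.25 in wild type and 3.89, 4.58, 2.99 and 1.64 in Il1rn-/- in set b. Ccnb1 spread widely in both genotypes, from 1.13 in wild-type 3-a to 5.25 in wild-type 4-b, and its difference of -0.56 ± 0.49 was well within that spread (adjusted p = 0.837 by limma). Of its longest transcript 46.7% is shared with other transcripts in matches of 32 bases, most of it with the pseudogene Ccnb1-ps, so its reads are uncertain.

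Ccna2, the cyclin of S phase and early mitosis, was at 6.84, 5.95 and 5.47 in wild type and 5.33, 5.63 and 5.80 in Il1rn-/- in set a. Set b gave 4.68, 4.61, 5.39 and 5.37 in wild type and 5.34, 5.68, 5.57 and 5.39 in Il1rn-/-. Wild type lay higher on average in set a and lower in set b, with overlap in each, and the differences were -0.50 ± 0.30 and 0.48 ± 0.26. The difference between these 2 values was 0.98 ± 0.40, with an adjusted p of 0.61 by limma.

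Cks2, the small subunit that binds cyclin-dependent kinases, had the largest genotype difference of the 32 genes. Its level was 2.65, 2.25 and 2.64 in wild type and 1.29, 1.77 and 2.74 in Il1rn-/- in set a. In set b it was 4.34, 4.53, 3.68 and 4.89 in wild type and 3.01, 3.76, 2.67 and 1.92 in Il1rn-/-. The wild-type libraries of set b were the highest group, and Il1rn-/- 2-b, at 3.76, was above the lowest of them, wild-type 3-b. The group means in set b were 4.36 ± 0.51 and 2.84 ± 0.76 (SD, n = 4 each). The difference was -1.12 ± 0.33 over all libraries (unadjusted p = 0.00324, adjusted p = 0.787 by limma), the only one of the 32 with an unadjusted p under 0.05. With the Rn45s-rich libraries marked by a covariate in place of the letter it was -0.66, and it was -0.43 within the 8 other libraries and -0.98 within the 6 Rn45s-rich ones. Cks2 has the shortest transcript of the 32, 692 bases, 31.6% of it shared with the pseudogene Gm15452, and it had 11 to 54 reads per library.

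Among the kinases of mitosis, Aurkb, the kinase of the chromosomal passenger complex, was at 5.27, 4.86 and 3.98 in wild type and 4.25, 4.43 and 4.23 in Il1rn-/- in set a. In set b it was at 3.76, 4.24, 4.61 and 4.23 in wild type and 3.12, 4.81, 3.98 and 3.83 in Il1rn-/-. The genotypes overlapped and the difference was -0.33 ± 0.25 (adjusted p = 0.812 by limma). Aurka and Plk1, which act at spindle poles, Bub1 and Bub1b, which act in the spindle checkpoint, and Birc5, a partner of Aurkb, were not called between the genotypes either. Their group means ran from 2.03 for Bub1 in Il1rn-/- of set b to 4.46 for Birc5 in wild type of set b. Of the remaining mitotic genes, the following were not called between the genotypes either. Ccnb2, a second mitotic cyclin, had group means of 4.51 to 4.74, Cdc20, the activator of the anaphase-promoting complex, 4.64 to 4.91, and Ube2c, the ubiquitin-conjugating enzyme of that complex, 3.83 to 4.29. The spindle motors Kif11 and Kif20a had group means of 3.86 to 5.11 and 3.81 to 4.37 (32.5% of the longest Kif20a transcript is shared with Cdc23, so its reads are uncertain), and the spindle assembly proteins Nusap1 and Tpx2 of 3.96 to 4.87 and 3.53 to 4.53.

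Cenpe, a kinesin of the kinetochore, was at 4.68, 5.17 and 3.55 in wild type and 3.28, 4.09 and 4.21 in Il1rn-/- in set a. It was at 1.79, 2.09, 1.84 and 1.50 in wild type and 1.91, 1.67, 4.17 and 3.09 in Il1rn-/- in set b. All 6 Rn45s-rich libraries were at or below 2.09 and the 8 others at or above 3.09, and the genotypes overlapped in both sets. Cenpf was at 4.44, 4.44 and 2.79 in wild type and 3.04, 3.72 and 3.87 in Il1rn-/- in set a. The set b values were 1.47, 2.31, 2.24 and 1.19 in wild type and 1.91, 3.23, 3.04 and 3.35 in Il1rn-/-. Within set b the Il1rn-/- libraries were higher on average by 1.08 ± 0.45 (unadjusted p = 0.0281, adjusted p = 0.291 by limma), and the 3 highest of them included both that are not Rn45s-rich. Over all libraries the differences were 0.26 ± 0.40 for Cenpe and 0.47 ± 0.37 for Cenpf.

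Mki67, the chromosome surfactant used as the standard marker of dividing cells, was at 6.96, 6.71 and 5.69 in wild type and 5.76, 6.29 and 6.39 in Il1rn-/- in set a. In set b Mki67 was at 4.08, 5.10, 4.39 and 3.67 in wild type and 4.11, 5.39, 5.37 and 5.64 in Il1rn-/-. Every library of set a was above every library of set b, and within set b 3 of the 4 Il1rn-/- libraries were above all 4 wild-type ones. The difference was -0.31 ± 0.40 in set a and 0.82 ± 0.35 in set b (unadjusted p = 0.0307, adjusted p = 0.299 by limma). Top2a was at 7.85, 7.42 and 6.41 in wild type and 6.27, 6.93 and 6.77 in Il1rn-/- in set a. Its set b values were 5.82, 5.69, 5.80 and 5.81 in wild type and 5.64, 6.24, 6.20 and 6.69 in Il1rn-/-. The 4 wild-type libraries of set b lay between 5.69 and 5.82, below all of set a, and the Il1rn-/- libraries of set b lay on both sides of them. Its genotype difference was -0.01 ± 0.23 over all libraries (adjusted p = 0.997 by limma).

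Among the replication genes, the products of Mcm2 to Mcm7 form the helicase ring that unwinds DNA at the fork. Mcm2 was at 6.90, 6.55 and 5.74 in wild type and 6.48, 6.46 and 6.23 in Il1rn-/- in set a. It was at 6.17, 6.02, 6.63 and 6.35 in wild type and 6.32, 6.81, 6.58 and 6.87 in Il1rn-/- in set b. The genotypes overlapped, and the difference was 0.20 ± 0.17 (adjusted p = 0.833 by limma). Mcm3 was at 7.31, 6.47 and 6.10 in wild type and 6.15, 6.30 and 6.14 in Il1rn-/- in set a. Set b values of Mcm3 were 6.36, 6.25, 6.45 and 6.82 in wild type and 6.48, 6.73, 6.33 and 6.68 in Il1rn-/-. The Mcm3 difference was -0.43 ± 0.26 for set a against 0.08 ± 0.22 for set b, and the test between these values gave an adjusted p of 0.703 by limma.

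Mcm5 was at 7.50, 6.70 and 6.44 in wild type and 6.71, 6.65 and 6.33 in Il1rn-/- in set a. The set b levels of Mcm5 were 7.17, 6.69, 7.16 and 6.87 in wild type and 6.92, 7.03, 6.91 and 6.95 in Il1rn-/-. The 4 Il1rn-/- libraries of set b lay between 6.91 and 7.03, inside the wild-type range. Mcm6 was at 7.61, 7.22 and 6.66 in wild type and 7.19, 7.45 and 7.05 in Il1rn-/- in set a. In set b Mcm6 was at 7.01, 6.78, 6.47 and 6.93 in wild type and 7.03, 7.08, 7.37 and 7.54 in Il1rn-/-. In set b every Il1rn-/- library was above every wild-type library, the closest pair being 7.03 and 7.01, while the groups overlapped in set a. The difference was 0.46 ± 0.21 in set b (unadjusted p = 0.0419, adjusted p = 0.319 by limma) and 0.07 ± 0.24 in set a. Mcm4 and Mcm7, the remaining members of the ring in the list, had group means of 6.39 to 6.79 and 5.98 to 6.57.

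Pcna was at 6.02, 5.77 and 5.81 in wild type and 5.73, 5.91 and 5.75 in Il1rn-/- in set a. Its values in set b were 6.76, 6.87, 6.64 and 7.01 in wild type and 6.63, 6.76, 6.33 and 5.88 in Il1rn-/-. Wild type was higher on average in set b, with Il1rn-/- 3-b and 4-b the lowest and Il1rn-/- 2-b inside the wild-type range. The difference was -0.42 ± 0.19 in set b (unadjusted p = 0.0387, adjusted p = 0.316 by limma) and -0.27 ± 0.15 over all libraries. Of its transcript 37.5% is shared with the pseudogene Pcna-ps2, and its reads are uncertain to that extent.

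Rrm2, the subunit of ribonucleotide reductase that limits the supply of deoxyribonucleotides in S phase, was at 7.44, 7.04 and 5.94 in wild type and 5.95, 6.51 and 6.57 in Il1rn-/- in set a. For set b the values were 5.27, 5.48, 5.43 and 5.64 in wild type and 5.71, 5.87, 6.37 and 6.31 in Il1rn-/-. All 4 Il1rn-/- libraries of set b were above all 4 wild-type ones, with the closest pair at 5.71 and 5.64, whereas in set a wild type held the highest and the lowest value. The Rrm2 difference was -0.46 ± 0.31 for set a against 0.61 ± 0.26 for set b, and these were apart by 1.07 ± 0.40 (unadjusted p = 0.0158, adjusted p = 0.61 by limma). Tyms, which makes thymidylate, was at 5.17, 4.30 and 4.17 in wild type and 4.28, 3.80 and 4.48 in Il1rn-/- in set a. In set b Tyms was at 3.35, 2.82, 3.23 and 3.06 in wild type and 2.32, 3.64, 4.60 and 4.08 in Il1rn-/-. Il1rn-/- 3-b and 4-b were the highest of set b, Il1rn-/- 1-b was the lowest, and the difference over all libraries was 0.16 ± 0.31 (adjusted p = 0.926 by limma). Rrm1, the large subunit of ribonucleotide reductase, and Tk1, the thymidine kinase of the salvage pathway, had group means of 6.10 to 6.73 and 4.01 to 4.26.

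Taken by set, all 21 mitotic genes and 8 of 11 replication genes had a negative difference in set a, against 53.3% of all tested genes that were positive. The medians were -0.25 and -0.08, against 0.03 over all genes, and 0 of the 32 genes and 0% of all genes were called (1.97% at an unadjusted p under 0.05). Without wild-type 1-a the medians were 0.05 and 0.01, so the direction in set a rested on that library. Y-linked transcripts were held in set a only by wild-type libraries, 1-a and 2-a, and whether this bears on the direction was not tested. In set b 13 of 21 mitotic and 7 of 11 replication genes had a positive difference, against 53.7% of all genes, with medians of 0.15 and 0.08 against 0.05, which turned to -0.04 and -0.10 against -0.17 when the libraries were scaled to reads outside Rn45s. In set b 0 of the 32 genes and 0% of all genes were called, while 3 mitotic (Mki67, Cenpf and Cks2) and 3 replication genes (Mcm6, Rrm2 and Pcna) had an unadjusted p under 0.05, against 15% of all genes.

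Groups that did not overlap were seen for 0 of the 32 genes over all libraries (0.0324% of all tested genes), for 0 in set a (7.97% of all) and for 2 in set b, Mcm6 and Rrm2 (4.28% of all). In set b the 4 wild-type libraries and 2 of the 4 Il1rn-/- libraries were Rn45s-rich, and only its Il1rn-/- group held Y-linked transcripts. The 2 Rn45s-rich Il1rn-/- libraries of set b had a mitotic mean of 3.91 ± 0.59 and the 2 others 3.92 ± 0.12 (SD, n = 2 each). For the replication mean these were 6.05 ± 0.26 and 6.10 ± 0.00.

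**Figure D3:**
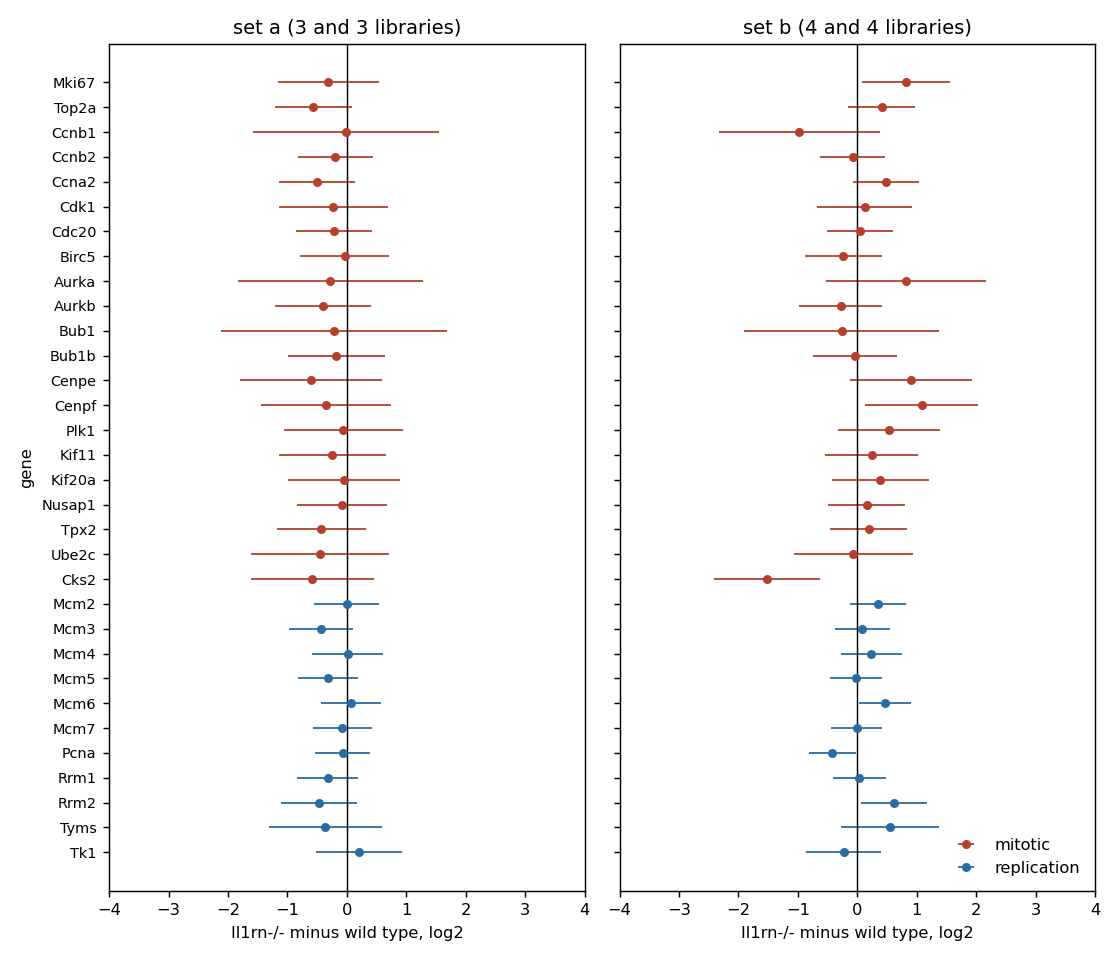
Il1rn-/- minus wild-type log2 difference of each of the 32 genes in set a (left) and set b (right), with 95% confidence intervals from limma that are not adjusted for the number of genes. All 21 mitotic points (red) of set a lie left of 0, and those of set b lie on both sides, from -1.52 for Cks2 to 1.08 for Cenpf.

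The genotype differences of the 2 sets had opposite signs in 19 of the 32 genes, against 53.2% of all tested genes. The difference between the sets had a median of 0.39 over the mitotic and 0.35 over the replication genes, against 0.02 over all genes, and 0 of the 32 genes and 0% of all genes were called (3 mitotic genes and 1 replication gene at an unadjusted p under 0.05, against 7.85% of all). Mki67, Ccna2, Top2a and Rrm2 were those 4. Without wild-type 1-a the medians were -0.08 and 0.09, and without wild-type 3-a they were 0.92 and 0.63.

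Between the lettered sets, with genotype in the model, 12 of the 32 genes were called, against 19.5% of all tested genes. Among the mitotic genes 1 was higher in set b (Cks2) and 7 were lower (Mki67, Top2a, Cenpe, Cenpf, Kif11, Nusap1 and Tpx2), against 8.48% and 11% of all genes. Among the replication genes 2 were higher (Pcna and Mcm7) and 2 lower (Rrm2 and Tyms). Mcm7 has 46.8% of its longest transcript in common with other transcripts, 36.8% with Gm5487, so its reads are uncertain too. The median difference of set b minus set a was -0.58 over the mitotic and -0.04 over the replication genes, against -0.11 over all genes. Mki67 was lower in set b by -1.58 ± 0.29 on the signed log2 scale (adjusted p = 0.00204 by limma), Cenpe by -1.91 ± 0.41 (adjusted p = 0.00451 by limma) and Top2a by -0.95 ± 0.23 (adjusted p = 0.00906 by limma). Rrm2 differed by -0.82 ± 0.23 (adjusted p = 0.0214 by limma) and Tyms by -0.98 ± 0.31 (adjusted p = 0.0351 by limma). Pcna was higher by 0.78 ± 0.15 (adjusted p = 0.00231 by limma) and Cks2 by 1.38 ± 0.34 (adjusted p = 0.00942 by limma). With the Rn45s-rich libraries marked by a further covariate 0 of the 32 genes and 12 of all genes were called, where the letter then rests on Il1rn-/- 3-b and 4-b against set a. Without wild-type 1-a 6 of the 32 were called, and without wild-type 2-a 5.

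The 8 libraries that were not Rn45s-rich were compared with the 6 that were, with no test. All Rn45s-rich libraries are of set b, and the others are those of set a with Il1rn-/- 3-b and 4-b. The split thus largely follows the letter. The 2 can be set apart only within Il1rn-/- of set b, which held both kinds of library. There 3-b and 4-b, which were not Rn45s-rich, were also the libraries with Y-linked transcripts. The mitotic mean there was 3.92 ± 0.12 outside the Rn45s-rich libraries and 3.91 ± 0.59 within them (SD, n = 2 each). Single genes differed in opposite directions. Cenpe was at 4.17 and 3.09 outside them and 1.91 and 1.67 within them, and Ccnb1 at 2.99 and 1.64 against 3.89 and 4.58. What sets these libraries apart was not tested. Of the mitotic genes 15 of 21 were higher in the 8 libraries, with a median of 0.57, and of the replication genes 6 of 11, with a median of 0.09, against 56.2% and a median of 0.13 over all tested genes. Scaled to reads outside Rn45s these were 15 of 21 with a median of 0.34 and 5 of 11 with a median of -0.12, against 42.1% and a median of -0.15 over all tested genes. The replication median thus changed sign along with the median of all tested genes and stayed near it. The mitotic median was above the median of all tested genes under both scalings. The mean over the mitotic genes was higher in the 8 libraries by 0.44 and the median over them by 0.18, and for the replication genes these values were 0.13 and -0.062. Cenpe was at 4.03 ± 0.70 against 1.80 ± 0.20 (SD, n = 8 and n = 6), a difference of 2.23, and Mki67 was at 6.10 ± 0.57 against 4.46 ± 0.66. Cks2 went the other way, at 2.24 ± 0.53 against 4.04 ± 0.68, a difference of -1.80, as did Ccnb1, at 3.03 ± 1.16 against 4.24 ± 0.56, and Pcna, at 5.90 ± 0.20 against 6.78 ± 0.15. Tyms was at 4.36 ± 0.41 against 3.07 ± 0.46 and Rrm2 at 6.52 ± 0.51 against 5.57 ± 0.22. The libraries did not overlap for 3 genes that were higher in the 8 libraries (Cenpe, Rrm2 and Tyms, against 8.35% of all genes) and 3 that were lower (Cks2, Mcm7 and Pcna, against 6.56% of all).

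**Figure D4:**
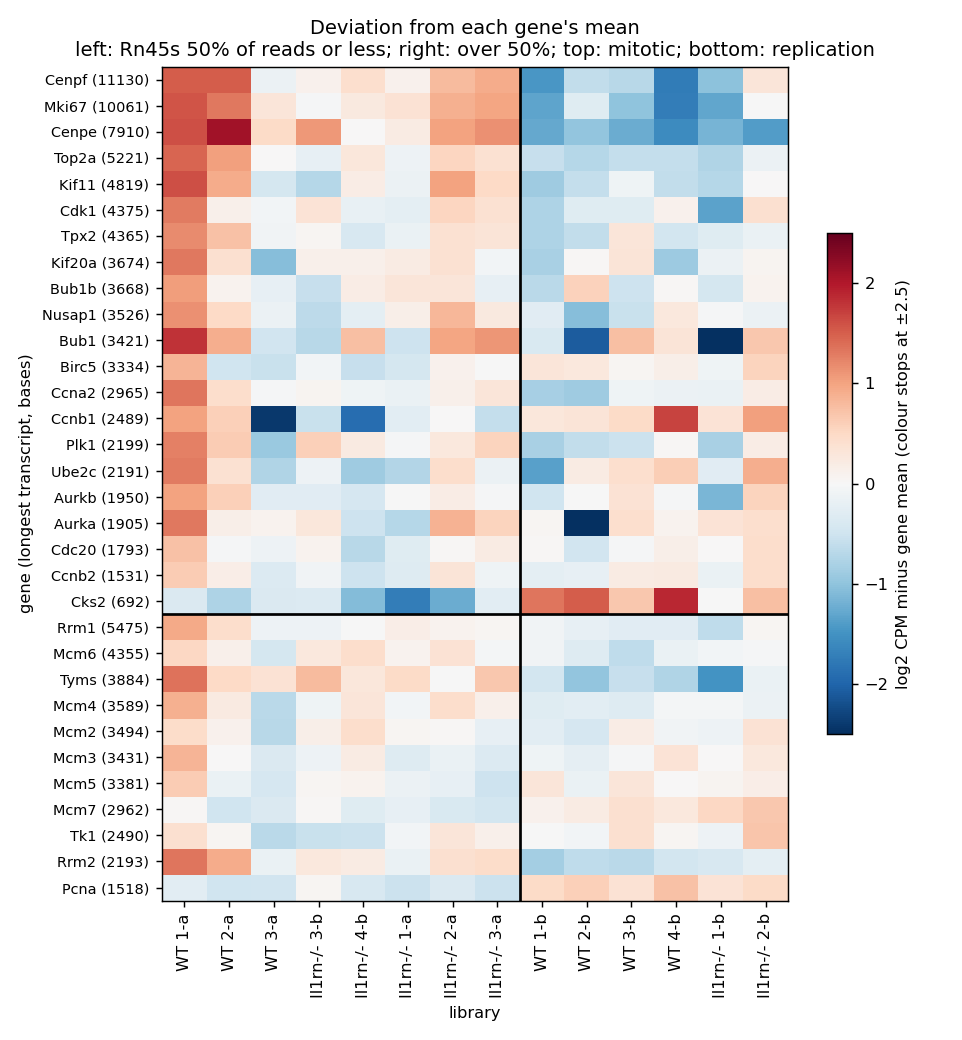
Deviation of each of the 32 genes from its own mean, in log2 CPM (colour stops at ±2.5), with mitotic genes above and replication genes below the horizontal line, sorted from long to short transcripts within each. Libraries with Rn45s at 50% of reads or less are left of the vertical line and Rn45s-rich libraries right of it. The long transcripts Cenpf, Mki67 and Cenpe are mostly red on the left and mostly blue on the right. Cks2 and Pcna, at the bottom of the 2 blocks, are mostly the reverse. Exceptions include Cenpf, which is below its mean in wild-type 3-a and above it in Il1rn-/- 2-b.

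The size of this difference followed the length of the transcript within the cell cycle genes. Across the 32 genes Pearson's r between the difference and the logarithm of the longest transcript length was 0.745 (Spearman's rho 0.652), across the 21 mitotic genes 0.814 and across the 11 replication genes 0.468. These are correlations across genes measured in the same libraries, and genes are not independent replicates. Over 11326 tested genes with a length the correlation was 0.108. By length, the median difference of all tested genes went from -0.51 under 1000 bases to 0.24 from 6000 bases up, and the 3 cell cycle genes in the longest class, Mki67, Cenpe and Cenpf, had a median of 1.65. In the class of 4000 to 6000 bases all 6 (Top2a, Cdk1, Kif11, Tpx2, Mcm6 and Rrm1) were higher in the 8 libraries, with a median of 0.62 against 0.18 for all genes of that length. The replication genes span 1518 to 5475 bases and the mitotic genes 692 to 11130 bases. With the trend over length removed in each library, an alternative chosen after seeing the data, 8 of the 12 genes called between the lettered sets were called again and no other of the 32. The 4 that were not were Cks2 (0.70), Cenpf (-1.04), Tpx2 (-0.56) and Tyms (-0.88), with adjusted p of 0.0984, 0.0567, 0.105 and 0.0616 by limma.

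**Figure D5:**
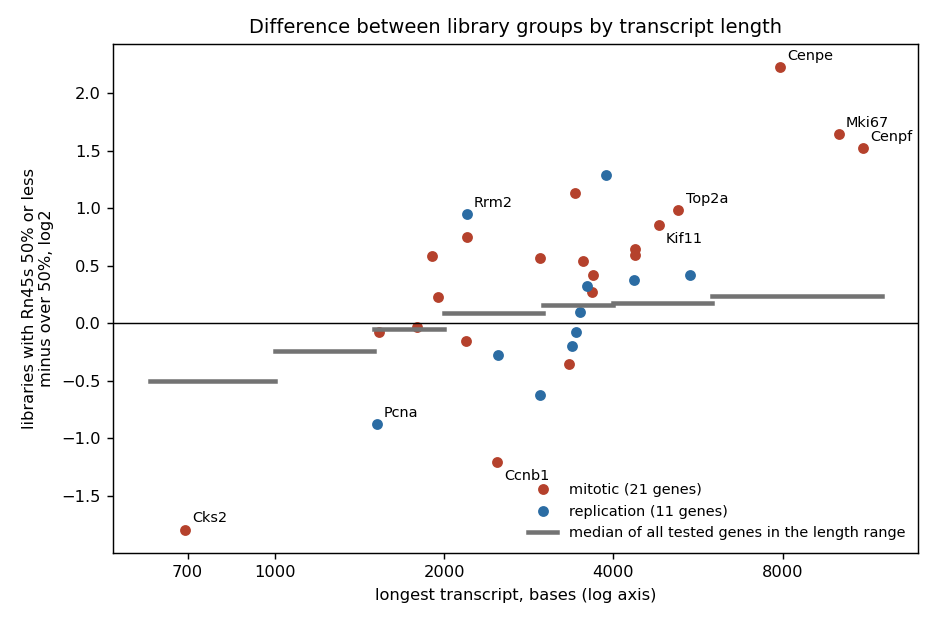
Mean log2 difference between the 8 libraries with Rn45s at 50% of reads or less and the 6 Rn45s-rich libraries, against the length of the longest transcript (log axis), for 21 mitotic (red) and 11 replication genes (blue). Grey bars are the median of all tested genes in each length range. Cks2, at 692 bases, lies at -1.80 and Cenpe, at 7910 bases, at 2.23, farther from 0 than the grey bars at those lengths.

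Other genes of the same processes were followed with 4 wider lists. Counts and medians with the Rn45s-rich libraries as covariate in place of the letter follow each. Of 41 further replication genes 20 had a positive and 21 a negative genotype difference, with a median of -0.0025 and 0 called by limma (16 positive and a median of -0.047 with the covariate). Of 56 further mitotic genes 30 were positive and 26 negative, with a median of 0.0081 and 0 called, but with the covariate 17 were positive and the median was -0.17. Of 32 regulators of the step from G1 to S phase 15 were positive and 17 negative, with a median of -0.0065 and 0 called (17 positive and 0.0093 with the covariate). Of 13 cell cycle inhibitors 5 were positive and 8 negative, with a median of -0.04 and 0 called (4 positive and -0.10 with the covariate). Between the lettered sets the further mitotic genes had a median of -0.51, with 2 higher and 9 lower called, and the further replication genes -0.03, with 1 higher and 1 lower called.

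Fbxo5, the inhibitor of the anaphase-promoting complex also called Emi1, had the smallest unadjusted p of the further mitotic genes. Wild type was at 2.76 ± 1.47 against 3.84 ± 0.31 for Il1rn-/- (SD, n = 7 each), and they differed by 1.08 ± 0.37 (adjusted p = 0.787 by limma), or by 0.65 with the Rn45s-rich libraries as covariate. Hmgb2, a chromatin protein that is abundant in dividing cells, was at 6.34 ± 0.89 and 5.69 ± 1.01, a difference of -0.65 ± 0.30, or -0.17 with that covariate, and the checkpoint kinase Ttk differed by 0.76 ± 0.41. Among replication genes the uracil glycosylase Ung differed by 1.40 ± 0.76, the DNA ligase Lig1 by -0.26 ± 0.17 and Uhrf1, which recruits the maintenance DNA methyltransferase, by -0.31 ± 0.21. Of the G1 to S regulators Lin54, the DNA-binding subunit of MuvB that reads the CHR element, was at 3.53 ± 0.40 in wild type and 3.02 ± 0.24 in Il1rn-/-, a difference of -0.51 ± 0.23. E2f1 differed by 1.33 ± 0.69 at low levels of -0.39 ± 1.62 and 0.94 ± 0.76, and the cyclin Ccnd3 by -0.31 ± 0.17. Of the inhibitors, the antiproliferative genes Btg1 and Tob1 differed by -0.26 ± 0.15 and -0.56 ± 0.33 and the CDK4 and CDK6 inhibitor Cdkn2d by -0.28 ± 0.18. With that covariate the differences were nearer 0 for Ttk (0.47), Lig1 (-0.13), Uhrf1 (-0.19), Ccnd3 (-0.083), Btg1 (-0.070) and Tob1 (-0.26), each by over 1.5 times, and were 1.09 for Ung, -0.41 for Lin54, 1.47 for E2f1 and -0.21 for Cdkn2d. None of these genes was called, and the adjusted p by limma ran from 0.787 to 0.797.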

How the data were processed

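RNA was measured in 14 libraries, 7 wild type and 7 Il1rn-/-, made by Smart-Seq2 from RNA of the RNeasy Micro kit of Qiagen, per the labels' protocols. Per the labels' protocols, Cuffquant 2.2.1 quantified the transcripts, and TopHat2 2.0.10, BWA, Cuffnorm and Cufflinks 2.2.1 are listed in the submitters' processing notes. Not given in the sources used here are the build, the annotation, and how strand and shared reads were handled. The authors deposited log2 CPM values, with a lowest value of -3.58 that stands for 0 reads. Whole reads were recovered from their steps (for 100% of values to within 0.001) and used for depth and for limma voom, while every main test used the log2 values. Without molecular identifiers, reads cannot be taken for independent molecules.

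The genes tested (12329 of 14449) had at least 3 libraries above a CPM of 1. Main tests came from limma 3.58.1 (R 4.3.3), with its intensity trend and with terms for genotype and letter, two-sided, with Benjamini-Hochberg adjustment. The model with genotype and letter was tested on simulated data with independent noise and known changes in well-expressed genes only. Those data held no groups by Rn45s share or Y-linked transcripts within a set, so they cannot show how the model handles such groups. A model with 4 groups gave the contrasts within each set and their difference, and it was not tested on simulated data. Class means and the split at 50% of reads in Rn45s were described with no test. The genes and lists were chosen with earlier results of these data known. Values in every library are given for 16 genes, made up of 10 chosen by role and those with the smallest unadjusted p for genotype (3 per class) and for the difference between sets (2 per class), and the 3 with the largest difference by Rn45s share. Of each wider list, the 3 with the lowest unadjusted p are named. Transcript lengths and shared 32-base sequence came from the reference transcripts of GRCm38, which gave a length for 91.9% of tested genes. Libraries with 20 or more Y-linked reads were called positive. No libraries of a group were near-identical (lowest chi-square per gene 1.88). Alternatives covered the filter, a pseudocount of 1, scaling, the letter term, a replicate block, the variance model, voom, covariates, subsets of libraries and each library left out. Scaling to reads outside Rn45s and removal of a trend over transcript length were chosen after seeing the data. Other work used Python 3.11.15, numpy 2.4.6, pandas 2.3.3 and matplotlib 3.10.9.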

Additional observations from a re-analysis of the deposited data

Results flagged for a closer look

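Of 38 groups of 4 libraries tested for a value that stands apart, 2 had one by Dixon's ratio, the gap to the nearest library over the range of the group, set against the 95% critical value for 4 samples. Chance gives about 1 in 20. Top2a in wild type of set b had its lowest value in library 2-b, at 5.69 log2 CPM, with a ratio of 0.839, in a group that spans only 5.69 to 5.82. Ccnb1 in wild type of set b had its highest value in library 4-b, at 5.25 log2 CPM, with a ratio of 0.859, against 3.83 to 4.03 in the other 3.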

How the results depend on the processing

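For genotype over all libraries 0 of the 32 genes were called under any of the 30 alternatives run, and 0 of all genes under 28 of them. The exceptions were the libraries with Rn45s at 50% of reads or less taken alone (2 genes, 1 higher) and the Rn45s-rich libraries taken alone (13 genes, all 13 higher). With another handling of Rn45s or a subset of libraries the mitotic median ran from -0.42 (Rn45s at 50% of reads or less alone) to 0.23 and the replication median from -0.15 (scaled to reads outside Rn45s) to 0.22, both highest in libraries that lack Y-linked transcripts when Rn45s-rich ones were marked by a covariate. Of the 16 named genes 4 (Aurkb, Cks2, Mcm2 and Mcm6) kept their sign under all 30 alternatives. The sign turned with library weights for Rrm2 (-0.0888), Ccna2 (-0.0817), Cenpe (-0.14) and Tyms (-0.11), with voom for Ccna2 (-0.0316) and Cenpe (-0.21), and with scaling to reads outside Rn45s for Ccna2 (-0.0524). With the Rn45s-rich libraries as covariate in place of the letter it turned for Rrm2 (-0.13), Ccna2 (-0.11), Cenpe (-0.41), Tyms (-0.23) and Mki67 (-0.15). With Y-linked transcripts added, Rrm2 (-0.0503), Pcna (0.0102), Ccna2 (-0.0526), Cenpe (-0.35), Tyms (-0.18) and Mki67 (-0.13) turned. In the libraries with Rn45s at 50% of reads or less these were Cenpf (-0.49), Rrm2 (-0.47), Pcna (0.0557), Ccna2 (-0.54), Cenpe (-0.70), Tyms (-0.30) and Mki67 (-0.57). In the Rn45s-rich libraries they were Mcm3 (0.13), Top2a (0.16), Cenpe (-0.0118), Tyms (-0.13) and Mcm5 (0.00752), and in those free of Y-linked transcripts Mcm3 (0.12), Cdk1 (0.00827), Top2a (0.19), Ccnb1 (0.76), Tyms (-0.0798) and Mcm5 (0.0509). The cause was not tested for any of these. Leaving out 1 library gave -0.21 to 0.0186 for Mcm3, -0.15 to 0.16 for Cdk1, -0.14 to 0.16 for Top2a, -0.0464 to 0.26 for Ccna2, -0.0587 to 0.47 for Cenpe and -0.0445 to 0.36 for Tyms.

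Within set a, leaving out 1 library gave 0 to 1 genes called, a mitotic median of -0.69 to 0.0543 and a replication median of -0.40 to 0.00645, and the replication mean differed by -0.41 to 0.10. Within set b 6 genes (5 higher) were called without the intensity trend. Leaving out 1 library gave 0 to 230 genes (0 to 113 higher) and 0 to 1 of the 32, where Cks2 (-1.83, adjusted p = 0.0447 by limma) was called without Il1rn-/- 2-b. For the difference between sets 2 genes, both higher, were called without the trend, and leaving out 1 library gave medians of -0.0778 to 0.92 (mitotic) and 0.0935 to 0.63 (replication). Between the lettered sets library weights gave 4091 genes (1785 higher), and the Rn45s-rich covariate gave 12 genes (6 higher) and 0 of the 32. Under that covariate Mcm6 (0.17), Ccnb1 (-0.96) and Tyms (0.10) turned sign. Leaving out 1 library gave 1355 to 3376 genes (655 to 1484 higher), 5 to 13 of the 32 genes, -0.0446 to 0.77 for Ccnb1 and -0.0472 to 0.21 for Mcm2. In deviations from group means, same-numbered libraries correlated at -0.151 to 0.000517 in set a and at -0.0261 to -0.00109 in set b. Differently numbered libraries ran from -0.14 to 0.204 in set a and from -0.0304 to 0.0377 in set b. With 3 or 4 libraries per group these values cannot show whether the replicate numbers pair the libraries. Scaled to reads outside Rn45s, the mitotic mean of set b differed by -0.065 and the replication mean by -0.038 between genotypes. The fit with the replicate number as a block left the medians at -0.03 and -0.04 and called 0 genes over all libraries, within each set and for the difference between the sets. A rescaling of recovered reads by trimmed means and a quasi-likelihood count test were not run. At 8 or more reads the replication genes were measured with less counting error than the weakest mitotic genes, of which Aurka and Bub1 had 1 read in their lowest library.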
